A study of Mus musculus with 4 samples.

Results

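The mouse cell line CH10T1/2, an embryonic fibroblast line used as a model of mesenchymal progenitors, was compared in 2 stably transfected forms, 1 carrying the R150C variant of PTHR1 (R150C cells) and the other carrying wild-type PTHR1 (WT cells). PTHR1 is the receptor for parathyroid hormone and for parathyroid hormone-related protein (PTHrP), and the R150C variant was found in enchondromas, benign cartilage tumours, per the labels. The groups were WT receptor with control medium, WT receptor with PTHrP, R150C receptor with carrier and R150C receptor with PTHrP, each measured on 1 Affymetrix mouse 430A 2.0 array. All cells had spent the night without serum, and PTHrP was given at 1e-07 M for 1 h. The WT control array is labelled as control, while carrier is named for it in the series text alone. Both R150C arrays were set against both WT arrays, paired by medium, over all 22626 of 22690 probe sets that were not Affymetrix controls, so the comparison uses all 4 arrays of the series. These stood for 12393 genes, of which 6197 were bright enough to be tested and are called kept genes below. Brightness was judged on the mean over all 4 arrays, so a gene could pass through 1 line alone. Each receptor is represented by 1 transfected line, so receptor and line cannot be told apart. Whether a line was a single clone, and which species the receptor cDNA came from, is stated in none of the sources used here.

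PTHR1 is a G protein-coupled receptor that raises cyclic AMP through Gs and also acts through Gq. In the growth plate, PTHrP acts in a feedback loop with Indian hedgehog that keeps chondrocytes dividing and delays their maturation. Growth factor receptors such as the EGF receptor signal through the kinase ERK, which within minutes switches on early genes. These encode transcription factors of the AP-1, Egr and Krueppel-like families and also the phosphatases and adaptors that turn ERK off again. Hedgehog ligands act through Ptch1, Smo and the Gli factors, with Gas1 as a coreceptor.

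The values are fluorescence intensities on a linear scale, called signal. The 4 arrays resembled each other more within a line than between lines: over kept genes the Pearson r of log2 values was 0.979 within the WT line and 0.985 within the R150C line, against 0.940 to 0.949 between lines. For the beta-actin control, the ratio of 3' to 5' signal, a sign of RNA or labelling quality, was 1.43 in the WT control array and 2.13 to 2.39 in the other 3, so 1 WT array stood apart from the other WT array on this measure. For the Gapdh control the ratio was 0.84 (WT) and 0.99 (R150C) in control medium, and 1.17 and 1.21 under PTHrP, so there the media differed. The part of these ratios in the results was not tested. The overall counts of called genes are given below without the WT control array, but those of the gene lists are not. The defining fibroblast genes were bright in every array, with Col1a1 between 4440.1 and 6197.4 and Vim between 7884.8 and 10659.2, and none of the 8 checked was called between the lines. Of 62 markers of macrophages, endothelium, epithelium and neurons, 6 were kept and none was called. The summed signal of these markers was 2053.5 and 1768.5 in WT cells (control, PTHrP) and 2091 and 1885.2 in R150C cells, so the ranges of the lines overlapped. These arrays did not report on the transgene. Pth1r read 3.9 and 3.3 in WT cells and 3.4 and 3.2 in R150C cells, at the floor of the array, and its probe set need not detect the transfected cDNA.

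The question put to these arrays was which gene families and functions differed between cells with the variant and cells with the normal receptor, in the same direction with and without ligand. Differences are R150C minus WT on the scale log2(signal + 16), after each array was centred on the median of the kept genes, and they understate the change of dim genes. limma fitted receptor and medium together, so that the error of a difference is the departure of the 4 arrays from additivity, with 1 residual degree of freedom. limma then drew each gene's error towards a value pooled over the genes. That pooled value carried 9.69 prior degrees of freedom with centring on the kept genes. A printed SE or p is therefore not the gene's own error alone. A gene is called higher or lower where limma's adjusted p stayed under 0.05 in each of the 4 scalings and the sign was the same in both media, and the p printed is the largest of those 4. By this rule 322 of 6197 kept genes (5.2%) were higher in the R150C line and 182 (2.94%) were lower. Counts of called list members below stand against these shares. The median kept gene differed by -0.04 in control medium and -0.07 under PTHrP. Of the called genes, 117 were at least 2-fold higher and 36 at least 2-fold lower over both media. In both media separately, 89 kept genes were at least 2-fold higher and 24 lower, 18 were at least 4-fold higher and 2 lower, and none was 2-fold changed in opposite directions. In these bulk samples fewer cells of a type and less RNA per cell cannot be told apart.

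**Figure D1:**
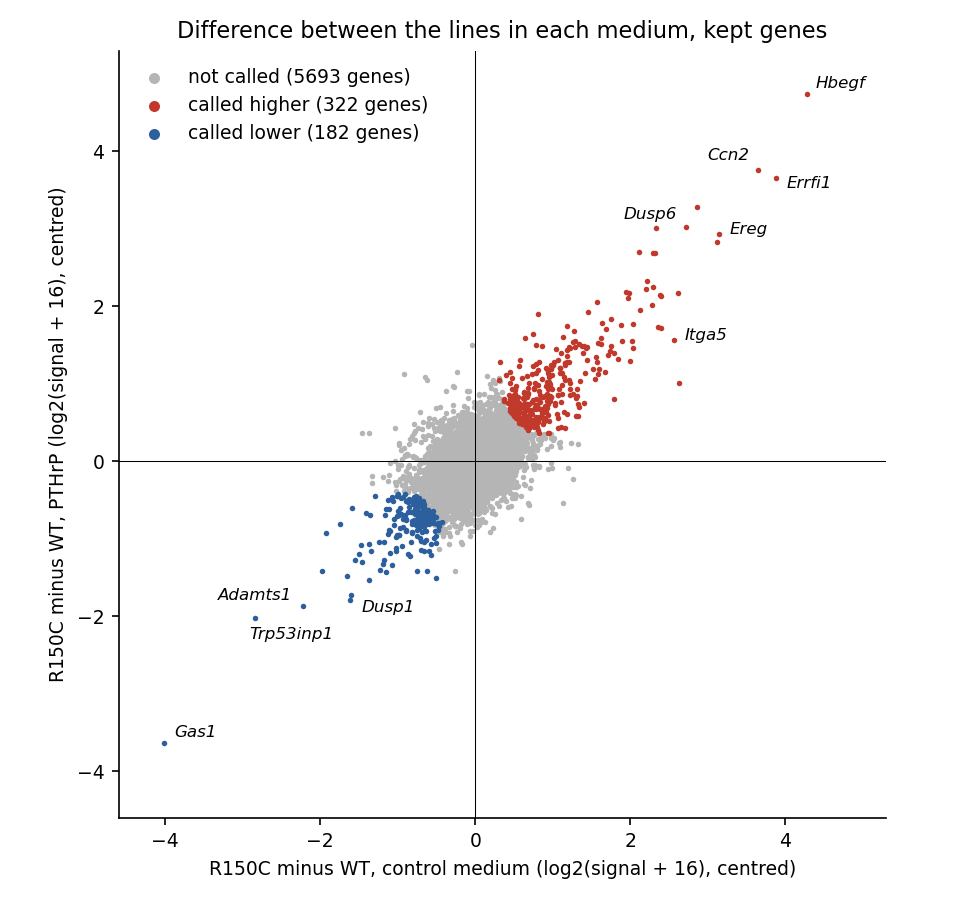
Difference between the R150C and WT lines for each kept gene, in control medium on the x axis and under PTHrP on the y axis, in log2 units. Red points are the 322 genes called higher, blue points the 182 called lower and grey points the 5693 not called. The called genes lie along the diagonal, where the rule for calling places them, with Hbegf and Gas1 at its ends.

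The counts depend on single arrays and on the filter against dim genes. Fitted on 3 arrays with receptor alone, they were 246 higher and 181 lower without the WT control array, 354 and 71 without the WT PTHrP array, 126 and 32 without the R150C control array, and 139 and 54 without the R150C PTHrP array. With all 12393 genes in the fit they fell to 30 and 3, and with the filter raised to the 75th percentile they were 152 and 42. No called gene changed direction under these, and of the 173 called genes taken by the rule for naming 135 kept their call without the WT control array. Leaving out 1 array moved the difference of 12 of them by over 1.5 times. Without the WT control array Osr1 stood at -0.94, Dusp16 at 0.59, Klf13 at 0.47, Angptl4 at 0.38 and Twist2 at 0.36. Without the WT PTHrP array Thbs1 stood at 0.71 and Tnnt2 at 0.70, and without the R150C control array H2aw stood at -0.84, Tk1 at -0.65, Btg2 at 0.40, Max at 0.36 and Jdp2 at -0.34. Of these 12, Osr1, Thbs1 and Tnnt2 were still called there. In each alternative with a value, 25 genes stayed called: Hbegf, Errfi1, Ccn2, Has2, Ereg, Noct, Dusp6, Sema7a, Myc, Vegfa, Smad7, Lif, Pvr, Clcf1, Phlda1, Fosl1, Inhba, Plaur, Neat1, Epha2, Ptgs2, Skil and Csf1 among those higher, and Gas1 and Adamts1 among those lower. Other probe sets of the same genes mostly had the same sign. Of 114 genes called higher that had another kept probe set, it was higher in both media in 100 and lower in both in 5. For 42 genes called lower the corresponding counts were 37 and 0. These other probe sets differed less, with a median of 0.67 against 0.89 for the brightest ones among genes called higher, and -0.58 against -0.81 among genes called lower.

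**Figure D2:**
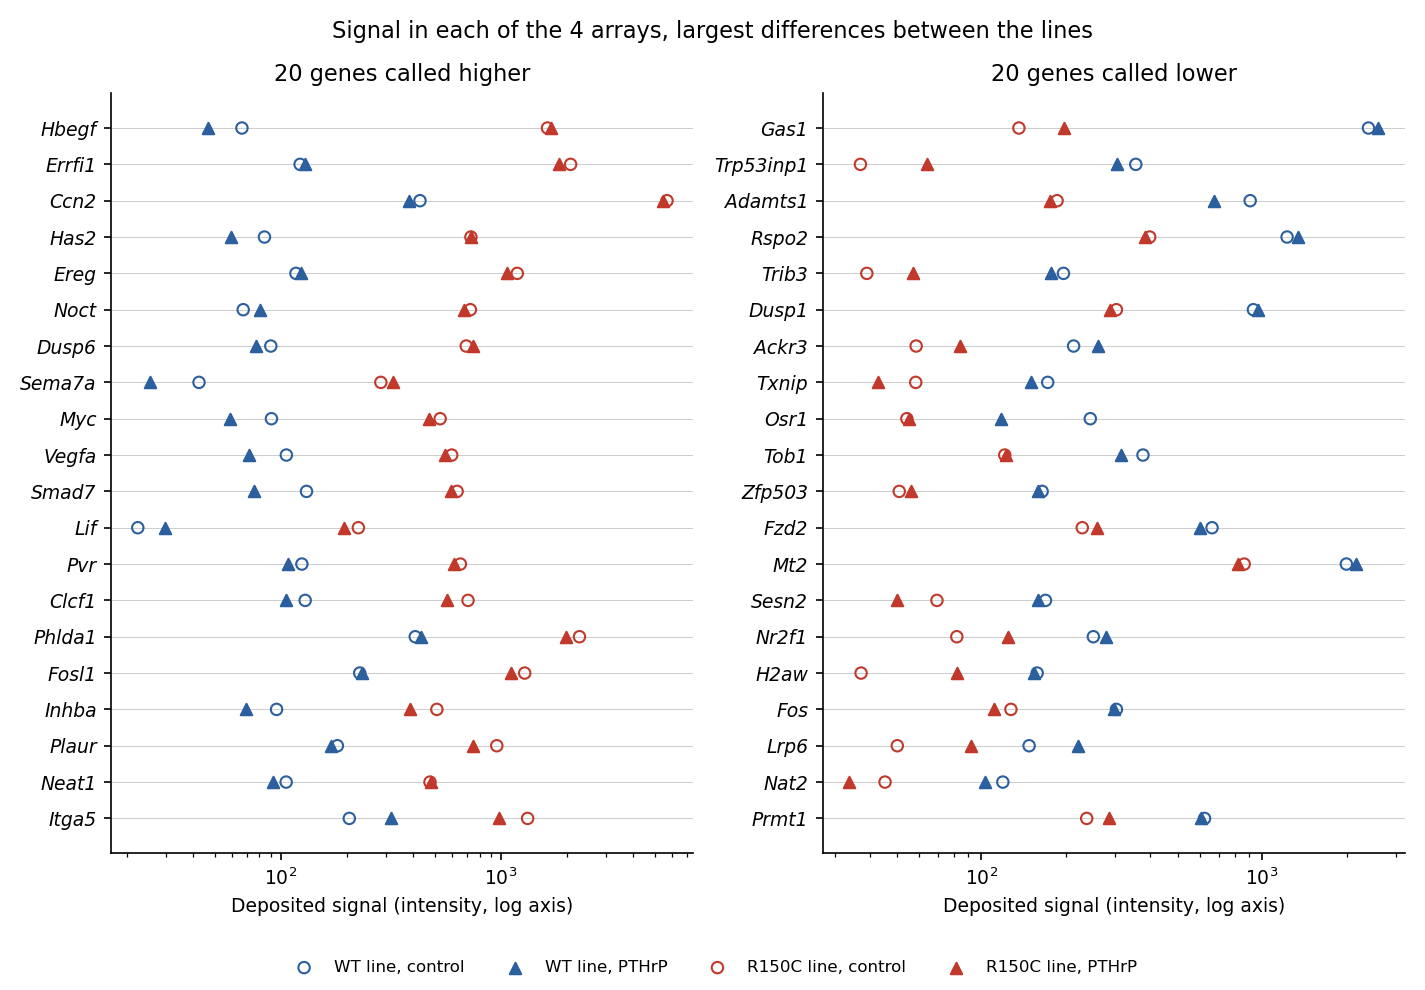
Deposited signal of the 20 genes with the largest called difference in each direction, 1 row per gene on a log axis, in the 4 arrays (blue WT line, red R150C line, circles control, triangles PTHrP). For none of these genes do the values of the lines overlap. The genes were chosen by this difference in the same arrays, which makes overlap unlikely. Hbegf reads 46.9 and 66.6 against 1629.8 and 1688.7.

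The largest called difference lay in a ligand of the EGF receptor. Hbegf, which encodes a membrane-anchored ligand of the EGF receptor, read 66.6 and 46.9 in WT cells (control, PTHrP) and 1629.8 and 1688.7 in R150C cells. It was higher by 4.51 (SE 0.16, limma adjusted p = 1.86e-06), and another of its probe sets differed by 4.15. Ereg, which encodes epiregulin, a further ligand, read 117.2 and 123.2 against 1187.7 and 1067.1 and was higher by 3.04 (SE 0.15, limma adjusted p = 1e-05). Errfi1, an inducible inhibitor that binds the kinase domain of the same receptor, read 122.4 and 128.7 against 2074.8 and 1844.6, a difference of 3.77 (SE 0.15, limma adjusted p = 3.65e-06). Another probe set of Errfi1 differed by 2.73. For all of these both R150C arrays lay far above both WT arrays. Only 6 of 12 genes of the list were kept, and the other 3 kept ones were not called.

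Genes that turn ERK signalling down were also mostly higher. Of 8 kept ERK phosphatases, Sprouty and Spred genes, 6 were higher and none lower, with a median of 0.91 in control medium and 1.24 under PTHrP. Dusp6, the phosphatase that dephosphorylates ERK in the cytoplasm, read 90.1 and 76.9 in WT cells and 696.3 and 747.9 in R150C cells, a difference of 2.87. The adaptor genes Spry2 (1.81), Spred2 (1.54) and Spred1 (1.18) were higher, as were the Ras GTPase-activating genes Rasa1 (1.03) and Rasa2 (0.65). Not every probe set agreed: over the mean of all its probe sets Spry2 differed by 0.997 and Spred2 by 0.52, where Spred2 was no longer called. Among phosphatases that act on p38 and JNK, Dusp2 (0.89) and Dusp16 (0.96) were higher. Dusp16 differed by 1.33 in control medium and by 0.59 under PTHrP, and its call was lost in 3 of the 4 fits that leave out 1 array. Dusp1, the broad MAP kinase phosphatase and an early gene itself, ran the other way, with 931.9 and 968.9 in WT cells against 302.9 and 286.7 in R150C cells, a difference of -1.66 (SE 0.15, limma adjusted p = 0.000244).

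Some other growth factor genes were higher. Vegfa, the main angiogenic factor, read 106.0 and 71.7 against 598.1 and 555.5 and was higher by 2.49. Another of its probe sets differed by 1.48. Angptl4, an angiopoietin-like secreted protein, was higher by 0.61, or 0.29 over all its probe sets. Pdgfb (1.60) and Pdgfc (0.89), ligands of the PDGF receptors, were the called members among 8 kept FGF and PDGF genes, and Pdgfb stood at 1.04 over all its probe sets. Bdnf, a neurotrophin, was higher by 1.08. Kitl, the ligand of the Kit receptor, was lower by -1.03, or -0.49 over all its probe sets, where it was no longer called.

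Transcription factor genes of the early response were more often higher than lower, with classic members of the same families on the opposite side. Of 11 kept Fos, Jun, Atf3 and small Maf genes, 6 were higher and 2 lower. Fosl1, the AP-1 subunit Fra-1, read 228.4 and 233.4 in WT cells and 1283.7 and 1107.3 in R150C cells, a difference of 2.26 (SE 0.15, limma adjusted p = 4.85e-05). Another of its probe sets differed by 1.08. Maff (1.72), Junb (1.58), Jun (1.48), Mafk (1.02) and Atf3 (0.85) were higher too. Fos, the founding AP-1 subunit, read 302.9 and 296.6 against 127.5 and 110.7, a difference of -1.25 (SE 0.15, limma adjusted p = 0.00117), and the AP-1 repressor gene Jdp2 was lower by -0.64, or -0.39 over all its probe sets, where it was no longer called. Both R150C arrays lay below both WT arrays for Fos and above them for Fosl1.

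The Egr, Nr4a and Ier genes showed the same split, with 4 of 8 kept members higher and 1 lower. Egr2 read 58.8 and 73.5 against 295.5 and 249.7 and was higher by 1.79, while Egr1, the founding member, read 1740.5 and 1799.2 against 864.9 and 831.9 and was lower by -1.07 (SE 0.15, limma adjusted p = 0.00249). Ier3 (1.46), Ier5 (1.39) and Nab2 (0.96), a corepressor of Egr factors, were higher.

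Krueppel-like factors, zinc finger proteins that bind GC-rich promoters, gave the highest share of any list: 8 of 10 kept members were higher and none lower, with a median of 0.84 in control medium and 0.87 under PTHrP. The differences were moderate. They were 1.28 for Klf5, 1.15 for Klf10, 1.06 for Klf16, 1.05 for Klf9, 0.996 for Klf6, 0.74 for Klf13, 0.70 for Klf2 and 0.55 for Klf7. Klf10, for instance, read 125.3 and 91.5 in WT cells and 233.1 and 293.8 in R150C cells. Over all their probe sets Klf5 differed by 0.78, Klf9 by 0.57 and Klf13 by 0.30. The call of Klf13, and that of Klf7, was lost there.

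Myc, the growth-promoting factor, read 90.7 and 58.8 in WT cells against 529.9 and 473.0 in R150C cells and was higher by 2.51 (SE 0.16, limma adjusted p = 2.85e-05). The rest of its network moved little: Max and Mlxip were each higher by 0.55, and the median over 8 kept members was 0.14 without and 0.02 with PTHrP. Of 10 kept Ets factors, many of them substrates of ERK, Ets1 (1.12), Erf (0.94), Elk4 (0.76) and Elk3 (0.69) were higher and none was lower. Over all their probe sets Ets1, Erf and Elk4 stood at 0.49, 0.51 and 0.32 and were no longer called.

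Mesenchymal transcription factors were mixed. Snai1, a repressor of cadherin genes, was higher by 1.38, Foxc2 by 1.37, Twist2 by 0.57 and Twist1 by 0.56. Foxc1, the close relative of Foxc2, was lower by -0.79. Osr1, a factor of the lateral and intermediate mesoderm, read 244.5 and 118.0 in WT cells against 54.3 and 55.4 in R150C cells, a difference of -1.43 (SE 0.21). Of 5 kept Hox, Meis and Pbx genes, which keep a record of position along the body axis, Meis2 (-1.14) and Hoxa5 (-0.93) were lower and none was higher. Hoxa5 read 52.2 and 58.3 in R150C cells, below the filter, and was kept only through the WT arrays. The nuclear receptor gene Nr2f1 (-1.28) was lower as well.

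Because early response genes of several families differed together, the promoters of called genes were searched for the motifs of the factors above. The sequences are RefSeq's for the mouse assembly GRCm38.p6, with 250 bases before each start and 50 after it, and 406 of the 504 called genes had at least 1. The SRF CArG box, the site of serum response factor, stood on either strand in 3.85% of the 364 promoters of genes called higher, 2.03% of the 197 of genes called lower, 1.19% of the 6037 of kept genes that were not called and 1.63% of all 32851 promoters. For the AP-1 site TGANTCA the shares were 6.04%, 5.08%, 4.57% and 7.81% in the same order, and for the cyclic AMP response element TGACGTCA they were 3.57%, 1.52%, 3.18% and 1.79%. The E-box CACGTG was in 14%, 9.14%, 10.5% and 7.15%, and the Ets site CCGGAAGT in 5.22%, 2.54%, 9.96% and 3.89%. The TEAD site GGAATG was in 14.3%, 13.7%, 11.4% and 14.7%, and the FoxO site TGTTTAC in 2.20%, 2.03%, 2.58% and 3.65%. No called gene's promoter held the Gli site TGGGTGGTC, which was in 0.253% of all promoters. Several starts of 1 gene can share bases, so promoters are not independent, and a match is a description of letters, not of binding.

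The windows below show these motifs upstream of the start in 9 called genes described here, chosen after the values were seen, in capitals, with 25 bases on either side and in the direction of the gene. The first 3 hold CArG boxes: Srf on the minus strand at chr17:46556190-46556249, where another box lies within the window, Fhl2 on the minus strand at chr1:43196823-43196882 and Fermt2 on the minus strand at chr14:45530235-45530294. The next 3 hold AP-1 sites: Plaur on the plus strand at chr7:24462389-24462445, F3 on the plus strand at chr3:121723377-121723433 and, from a gene that was lower, Mt2 on the plus strand at chr8:94172514-94172570. The last 3 hold cyclic AMP response elements: Epha2 on the plus strand at chr4:141301163-141301220, Has1 on the minus strand at chr17:17855239-17855296 and, from a gene that was lower, Dusp1 on the minus strand at chr17:26508583-26508640. Further motifs are left in lower case, namely another AP-1 site in F3, a TEAD site in Epha2 and an E-box in Dusp1.
Srf: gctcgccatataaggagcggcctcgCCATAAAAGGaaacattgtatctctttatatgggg
Fhl2: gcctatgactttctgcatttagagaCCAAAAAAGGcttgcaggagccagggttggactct
Fermt2: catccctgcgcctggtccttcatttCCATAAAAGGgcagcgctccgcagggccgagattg
Plaur: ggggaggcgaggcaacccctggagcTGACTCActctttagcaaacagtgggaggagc
F3: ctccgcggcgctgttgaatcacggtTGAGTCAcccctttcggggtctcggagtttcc
Mt2: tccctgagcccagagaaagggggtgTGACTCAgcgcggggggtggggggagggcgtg
Epha2: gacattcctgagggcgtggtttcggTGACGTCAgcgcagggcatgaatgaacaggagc
Has1: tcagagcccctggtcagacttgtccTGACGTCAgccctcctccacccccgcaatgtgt
Dusp1: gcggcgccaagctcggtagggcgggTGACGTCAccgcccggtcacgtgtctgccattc
None of these motifs stood in genes of 1 direction only. Such windows upstream of the start held a CArG box in 7 genes called higher and 2 called lower. They held an AP-1 site in 11 and 3, and a cyclic AMP response element in 9 and 2. The windows did not cover every start and site, so these counts are partial. Egr2, for instance, has a CArG box upstream of its start but no window. Promoters over all starts came from 256 genes called higher and 150 called lower. In these, a CArG box stood in 10 and 4 genes, an AP-1 site in 20 and 9. A cyclic AMP response element stood in 13 and 3.

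Srf itself, the factor that binds CArG boxes, read 165.4 and 171.6 in WT cells against 555.7 and 529.8 in R150C cells and was higher by 1.57 (SE 0.15, limma adjusted p = 0.000365). Another of its probe sets differed by 0.85. The cytoskeletal targets of SRF were largely not called. Of 27 kept genes of the SRF, actin and contractile list, 4 were higher and none lower: Srf, the LIM domain genes Fhl2 (1.15) and Pdlim7 (1.13), and Pdlim5 (0.89). Pdlim7 stood at 0.63 over all its probe sets. The list's median was 0.32 in control medium and 0.12 under PTHrP.

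Targets and kinases of the YAP and TEAD pathway, which couples growth to cell shape and contact, were higher in 8 of 15 kept members and lower in none. Ccn2, a secreted matricellular factor and a standard YAP target, read 429.1 and 381.5 in WT cells against 5689.8 and 5439.9 in R150C cells, a difference of 3.70 (SE 0.15, limma adjusted p = 3.65e-06). Ccn1 read 816.4 and 844.7 against 2851.6 and 2426.7 and was higher by 1.62, and Ankrd1 was higher by 1.43. The remaining called members were F3 and Gadd45b (1.21 each), the kinase gene Lats2 (0.84), which restrains YAP, the YAP partner gene Wwtr1 (0.59) and Tead3 (0.59). Over all their probe sets Lats2 stood at 0.42 and Wwtr1 at 0.42, where Wwtr1 was no longer called. Wwtr1 and Tead3 lost their call in each of the 4 fits that leave out 1 array, and Lats2 in 2 of them.

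Among integrins and focal adhesion adaptors 4 of 14 kept members were higher (28.57%, against 5.2% of all kept genes) and none lower. Itga5, the fibronectin receptor subunit, read 204.8 and 317.2 in WT cells and 1323.3 and 984.1 in R150C cells, higher by 2.57 in control medium and by 1.57 with PTHrP. Another of its probe sets differed by 1.13 over both media. Bcar1 (0.94), Fermt2 (0.85) and Lims2 (0.79), which link integrins to actin, were the others. Lims2 read 53.2 and 38.7 in WT cells, below the filter, and was kept only through the R150C arrays. Bcar1 was no longer called with the filter raised to the 75th percentile. The hyaluronan receptor Cd44 (1.12) alone was called among 13 cadherin and surface adhesion genes (7.69%). Another probe set of Cd44 differed by 0.33 over both media and by -0.04 in control medium. Sema7a, a membrane-bound semaphorin that signals through integrins, read 42.5 and 25.5 against 284.9 and 322.6 and was higher by 2.67. Its WT signals lay below the filter, so it was kept only through the R150C arrays. Epha2 (2.07), an ephrin receptor, and Efnb1 (0.96, or 0.62 over all its probe sets), an ephrin, were higher, and Ephb3 was lower by -0.92.

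None of 22 kept collagens, the main structural proteins of the matrix, was called in either direction, and their median was 0.01 in control medium and -0.12 under PTHrP. Among 26 proteoglycans and matrix glycoproteins the adhesion modulators Thbs1 (1.20) and Tnc (0.72) and the laminin chain Lamc1 (0.68) were higher, though Lamc1 was not called over all its probe sets (0.42). Thbs1 read 1389.3 and 711.5 in WT cells against 2396.0 and 2290.9 in R150C cells, so its WT arrays differed from each other. Ccn4, the third called member among 8 kept genes of the list of CCN and other matricellular factors, was higher by 1.45.

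Of 7 kept genes of hyaluronan synthesis and binding, 3 were higher and none lower. Has2, the main hyaluronan synthase of mesenchymal cells, read 84.3 and 59.5 in WT cells and 731.1 and 728.4 in R150C cells, a difference of 3.07 (SE 0.16, limma adjusted p = 9.51e-06), and another of its probe sets differed by 3.88. Has1 was higher by 0.75, and Ugdh, which makes the precursor UDP-glucuronic acid, by 0.68.

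Proteases and their inhibitors moved both ways. Adamts1, a secreted protease that cuts aggrecan and versican, read 907.5 and 677.2 in WT cells against 186.2 and 176.2 in R150C cells, a difference of -2.05 (SE 0.16, limma adjusted p = 0.000127), and Adamts5, a major aggrecanase of cartilage, was lower by -0.87. The membrane proteases Adam19 (1.44) and Adam12 (0.76) and the inhibitors Timp1 (0.74) and Timp3 (0.72) were higher, though Adam12 (0.49) and Timp3 were not called over all their probe sets. Plaur, the receptor of urokinase, read 180.8 and 169.0 against 958.5 and 747.4 and was higher by 2.15. Tissue factor, the product of F3, and thrombomodulin, the product of Thbd (0.96), are regulators of clotting that were higher in the same list of 9 kept genes, where none was lower.

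**Figure D3:**
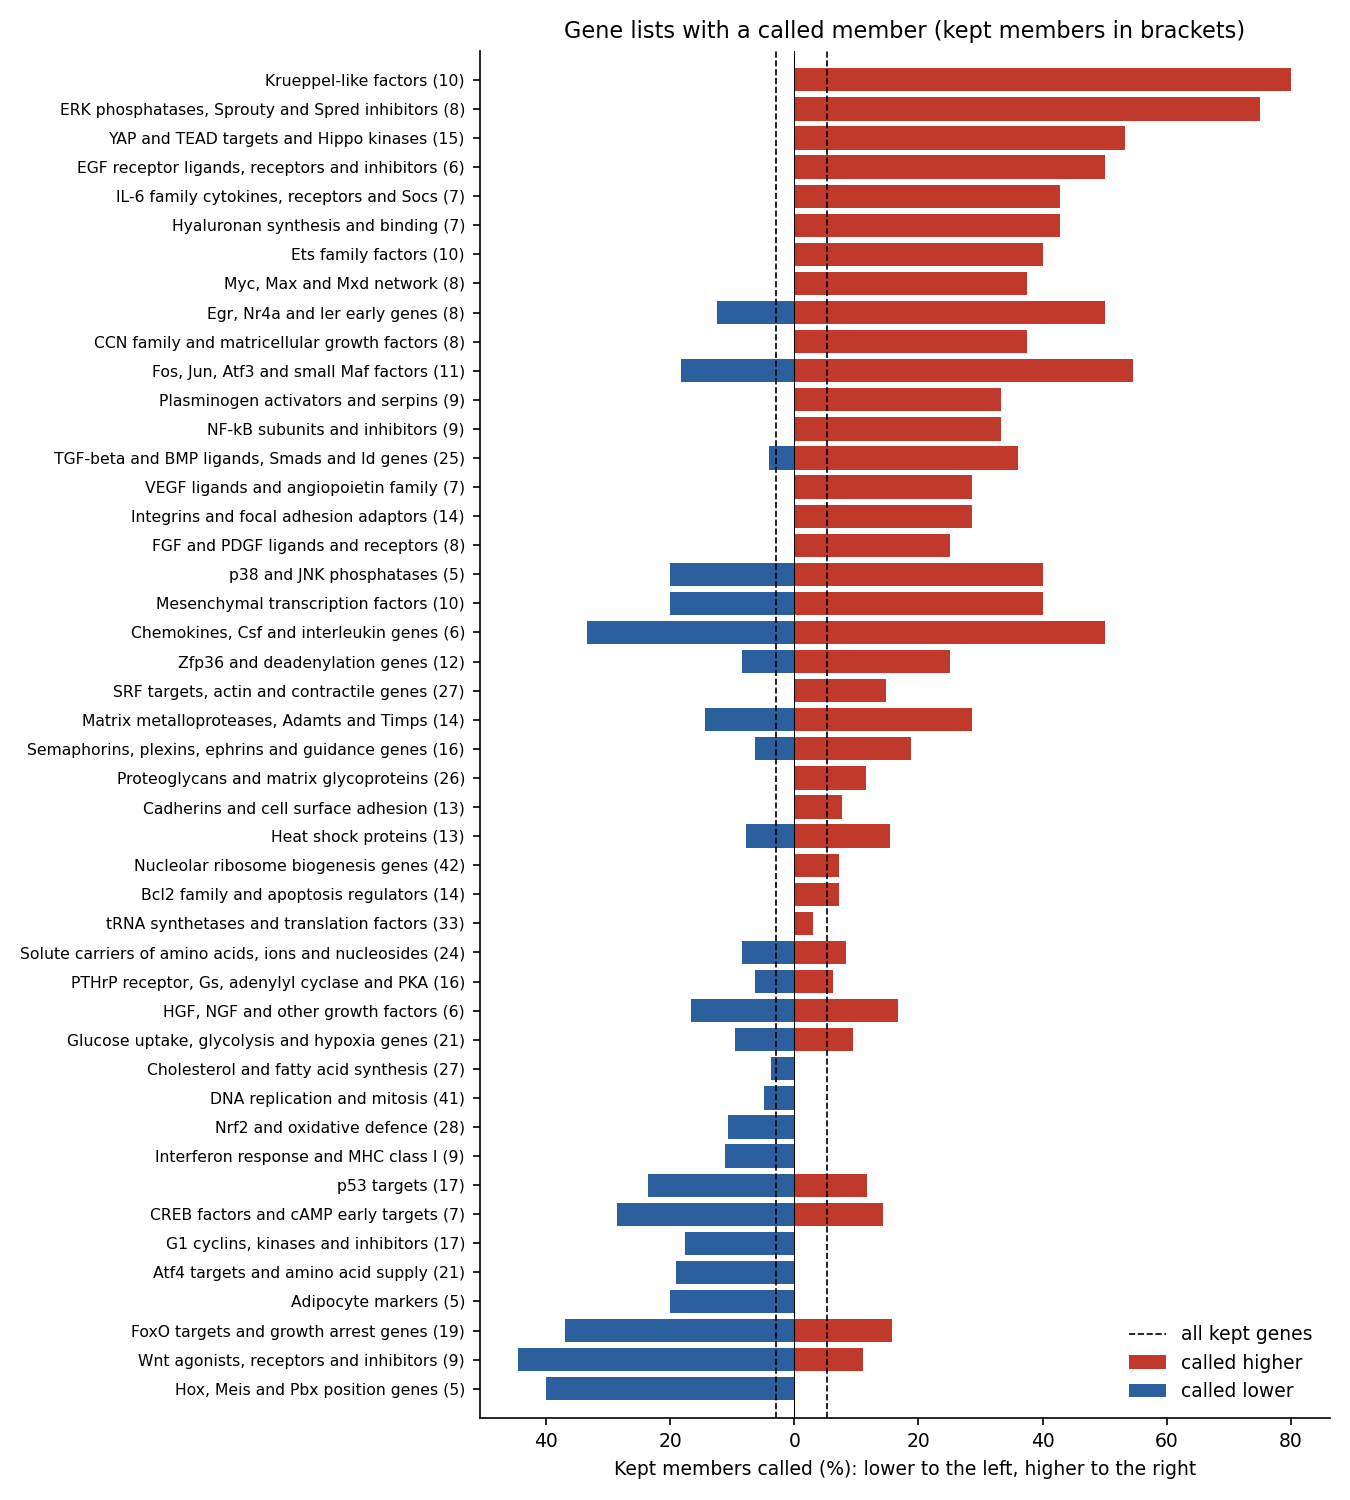
Percent of kept members called higher (red, to the right) and lower (blue, to the left) for 46 gene lists with at least 5 kept members and at least 1 called; dashed lines mark the shares over all kept genes, 5.2% and 2.94%. Krueppel-like factors and the ERK inhibitors lie at the top, and Hox, Wnt and growth arrest genes at the bottom.

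Of 7 kept genes of the IL-6 family, its receptors and Socs inhibitors, 3 were higher and none lower. Lif, which acts through the shared receptor gp130, read 22.4 and 29.9 in WT cells and 225.2 and 194.3 in R150C cells, a difference of 2.40. Over all its probe sets it stood at 1.34. Both WT signals of Lif lay below the filter, so it was kept only through the R150C arrays. Its other probe set, which lay below the filter, differed by 0.20. Clcf1, another gp130 cytokine, read 129.1 and 105.4 against 709.4 and 568.4 and was higher by 2.27 (SE 0.15, limma adjusted p = 4.37e-05), with 2.46 in another probe set. Socs3, the feedback inhibitor of that receptor, was higher by 1.03. With WT signals of 44.8 and 54.8, Socs3 too was kept only through the R150C arrays.

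Chemokine and colony-stimulating genes split. The macrophage growth factor gene Csf1 read 466.2 and 434.1 in WT cells against 1793.3 and 1535.1 in R150C cells and was higher by 1.82, or 1.03 over all its probe sets. The chemokine genes Ccl2 (1.71) and Cx3cl1 (0.76) were higher as well. Cxcl1 was lower by -0.65, and Ackr3, which takes up the chemokine CXCL12, read 213.2 and 260.0 against 58.6 and 84.0 and was lower by -1.57. Ptgs2, the inducible prostaglandin synthase, read 461.1 and 339.4 against 1901.1 and 1542.3, a difference of 2.04. Among 9 kept NF-kB genes Cflar (1.36, or 0.80 over all its probe sets), Tnfaip2 (0.93) and Tnfrsf1b (0.66) were higher. Tnfrsf1b read 59.8 and 57.5 in WT cells, below the filter, and was kept only through the R150C arrays. Of 9 interferon response genes only Irf1 was called, at -0.69.

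In the TGF-beta and BMP list 9 of 25 kept members were higher and 1 lower, and the largest differences lay in inhibitors and ligands. Smad7, the inhibitory Smad, read 130.9 and 75.8 in WT cells against 633.0 and 590.7 in R150C cells, a difference of 2.41 (SE 0.17, limma adjusted p = 5.38e-05). Inhba, which encodes the activin A subunit, read 95.7 and 69.3 against 512.0 and 386.8 and was higher by 2.21. The transcriptional repressors Skil (1.90) and Tgif1 (1.37) and the activin antagonist Fst (1.25) followed. Id1 (1.09) was higher and its relative Id2 (-0.998, or -0.62 over all its probe sets) lower. The receptor genes Tgfbr1 (0.90) and Acvr1 (0.74) and the subunit gene Inhbb (0.75) were called on the brightest probe set, but differed by 0.24, 0.41 and 0.27 over all their probe sets, where none of these was called.

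Of 9 kept Wnt components, 4 were lower and 1 higher. Rspo2, a secreted protein that amplifies Wnt signals, read 1228.3 and 1345.2 in WT cells and 397.9 and 384.1 in R150C cells, a difference of -1.70 (SE 0.15, limma adjusted p = 0.000244). The receptor genes Fzd2 (-1.35), Lrp6 (-1.25) and Fzd8 (-0.82) were lower. Fzd7 was higher by 0.77 on its brightest probe set, by 0.24 over all of them, and its other probe set, which lay below the filter, differed by -0.37. The list's median was -0.56, or -0.14 over all probe sets of its genes.

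Hedgehog genes were mostly dim. Gas1, the hedgehog coreceptor named for its rise in growth arrest, held the largest difference downwards of all kept genes, with 2394.3 and 2595.6 in WT cells against 136.1 and 197.6 in R150C cells. It was lower by -3.83 (SE 0.16, limma adjusted p = 5.46e-06), by -2.87 in another probe set and by -2.12 over all of its 3 probe sets. Of the 14 hedgehog genes on the array, 4 were kept, and Smo (-0.48, limma adjusted p = 0.151), Boc (-0.22) and Sufu (0.06) were not called. Ptch1 had its mean just under the filter and was not tested; it read 112.1 and 110.4 against 28.0 and 36.7, and its other probe set differed by 0.06. Gli1, Gli2 and Gli3 read lower in both media in the R150C line, with differences over both of -0.51, -0.80 and -0.45, from signals of 18.1 to 66.0 that were below the filter. Igfbp3, the IGF-binding protein named in the series title, read 24.2 and 23.6 in WT cells against 1.9 and 14.4 in R150C cells, all below the filter. Among the 7 kept IGF genes none was called, and all lay between -0.19 and 0.07 over both media.

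**Figure D4:**
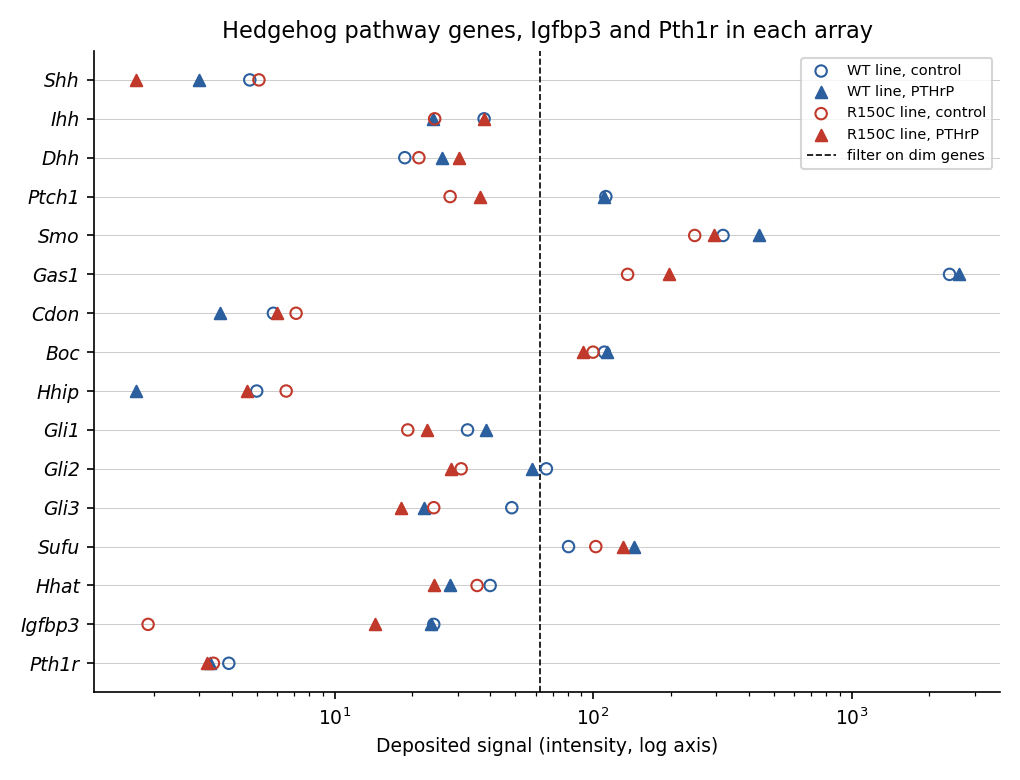
Deposited signal on a log axis of the 14 hedgehog pathway genes on the array, Igfbp3 and Pth1r, 1 row per gene, in the 4 arrays (blue WT line, red R150C line, circles control, triangles PTHrP). The dashed line marks the filter at a signal of 62.6; Gas1 lies to the right with the lines apart, and most other genes lie left of the filter.

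The receptor's own pathway differed little between the lines. Of 16 kept genes for Gs, adenylyl cyclases, protein kinase A and RGS proteins, Prkar1b was higher by 0.65 and Rgs2, an inhibitor of Gq and Gs signalling, lower by -0.89, with medians of -0.07 in control medium and -0.02 under PTHrP. Each direction held 6.25% of the list, against 5.2% higher and 2.94% lower over all kept genes. Prkar1b differed by 0.03 over all its probe sets. Rgs2 read 137.2 and 105.5 in WT cells and 60 and 57.8 in R150C cells. Early targets of cyclic AMP gave no common direction: of 7 kept, Dusp1 and Rgs2 were lower and Bdnf was higher.

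Among 19 kept FoxO targets and growth arrest genes, 7 were lower and 3 higher. Txnip, a thioredoxin inhibitor that limits glucose uptake, read 172.4 and 150.8 in WT cells and 58.4 and 42.8 in R150C cells, a difference of -1.45, with -1.40 in another probe set. Tob1 (-1.41), an antiproliferative adaptor of mRNA deadenylation, Foxo3 (-1.14), Ccng2 (-1.02), Cdkn1b (-0.99) and Sesn1 (-0.71) were lower besides Gas1. Over all their probe sets Foxo3 and Cdkn1b stood at -0.61 and -0.46. Foxo1 (0.78), Klf9 (1.05) and Btg2 (0.64) were higher.

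In the p53, Atf4 and oxidative defence lists more called members were lower than higher. Trp53inp1, a p53 target that promotes autophagy and cell death, read 355.1 and 304.8 in WT cells against 37.1 and 64.2 in R150C cells, a difference of -2.43, or -1.41 over all its probe sets. Its other probe set, below the filter, differed by -1.82 in control medium and by 0.88 under PTHrP. With Sesn2 (-1.29), Sesn1 and Gtse1 (-0.61), Trp53inp1 made 4 lower of 17 kept p53 targets, against Plk2 (0.87) and Btg2 higher. Over the alternatives with a value, Gtse1 lost its call in 8 of 15, Sesn1 in 5 of 14 and Btg2 in 10 of 16. Trp53inp1 and Sesn2 lost theirs in 1 of 15 each, and Plk2 in 2 of 16. Of 21 kept Atf4 targets 4 were lower and none higher: Trib3 (-1.70), a pseudokinase of the stress response, Sesn2, Herpud1 (-0.98) and the serine synthesis gene Psph (-0.69). Trib3 read 196.2 and 176.9 against 39.1 and 57.2, and stood at -1.11 over all its probe sets. The metallothionein genes Mt2 (-1.32) and Mt1 (-1.20) and the glutathione transferase gene Gsta4 (-0.73) were lower among 28 genes of oxidative defence, and Mt1 stood at -0.67 over all its probe sets. Psph lost its call in 6 of 15 alternatives and Gsta4 in 6 of 16, against 1 of 15 for Trib3 and 1 of 16 for Mt2. None of 19 kept ER folding genes was called. Among 13 heat shock genes Hspa1b (-0.86) was lower, and its cochaperones Dnajb4 (0.89) and Bag3 (0.72) were higher.

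Among regulators of mRNA stability, Noct had the largest difference. This relative of the deadenylases, which cycles with the circadian clock, read 67.5 and 80.5 in WT cells and 726.9 and 679.7 in R150C cells and was higher by 2.98 (SE 0.15, limma adjusted p = 1.74e-05). Zfp36l2, a protein that directs AU-rich mRNAs to decay, was higher by 1.56 on its brightest probe set and by 0.55 over all of them, where it was not called.

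The cell cycle lists held called genes on the low side only. Of 17 kept G1 genes, 3 were lower (17.65%, against 2.94% of all kept genes) and none higher. All 3 encode inhibitors of cyclin-dependent kinases: Cdkn2d (-1.09), Cdkn1b (-0.99) and Cdkn2c (-0.72). Cdkn2d read 240.8 and 283.2 in WT cells against 113.5 and 119.8 in R150C cells. Of 41 kept genes of DNA replication and mitosis, 2 were lower (4.88%), the thymidine kinase gene Tk1 (-1.10) and the spindle motor gene Kif11 (-0.72). Their median was -0.21 in control medium and -0.20 under PTHrP, against -0.04 and -0.07 over all kept genes. Tk1 read 1193.6 and 1133.5 in WT cells but 395.6 and 750.7 in R150C cells, so the size of its difference varied with the medium. Over the alternatives with a value, the call was lost in 6 of 15 for Kif11 and 6 of 16 for Tk1. It was lost in 4 of 16 for Cdkn2c, 3 of 14 for Cdkn1b and 1 of 15 for Cdkn2d. Another probe set of Cdkn1b, below the filter, differed by -0.0033.

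**Figure D5:**
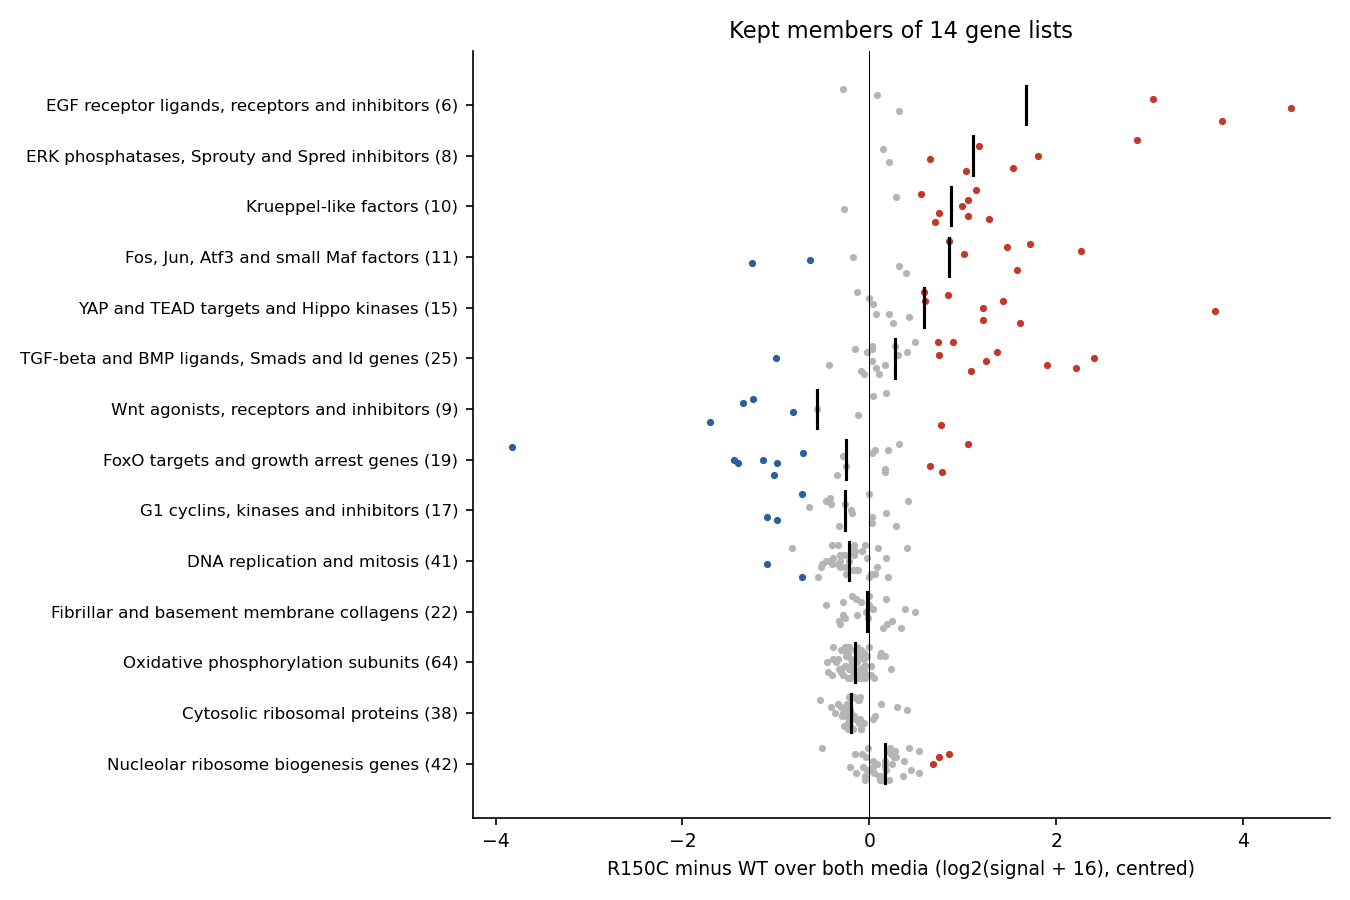
Difference between the lines over both media, in log2 units, for each kept member of 14 gene lists (number of members in brackets); red members were called higher, blue members lower and grey ones not called, and the black bar is the list's median. The spread is wide in growth factor, transcription factor and growth arrest lists, and collagens, oxidative phosphorylation subunits and ribosomal proteins have no called member.

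Most of metabolism and protein synthesis had few calls or none. None of 64 kept oxidative phosphorylation subunits, 38 ribosomal proteins, 32 proteasome subunits or 23 lysosome genes was called. Their medians were -0.06, -0.08, -0.00242 and -0.11 in control medium and -0.25, -0.30, -0.23 and -0.25 under PTHrP, so each lay lower under PTHrP than all kept genes. After quantile normalization the ribosomal median over both media was -0.01 in place of -0.20. Nucleolar genes of ribosome assembly leaned the other way, with a median of 0.17 over both media and Nip7 (0.85), Rrs1 (0.75) and Wdr43 (0.69) higher among 42, close to the share of all kept genes, and Nip7 not called over all its probe sets (0.46). Of 33 tRNA synthetases and translation factors the initiation factor gene Eif1a (0.62) was called. Among 21 glucose and hypoxia genes the hexokinase gene Hk2 (1.19) and the glucose transporter gene Slc2a1 (0.89) were higher, and Txnip and Ndrg1 (-0.63) lower. These are 9.52% of that list each way, against 5.2% higher and 2.94% lower over all kept genes. Of 27 genes of lipid synthesis, Dhcr7, the last step of cholesterol synthesis, was called, at -0.82. The phosphate carrier gene Slc20a1 (1.41) and the zinc carrier gene Slc39a14 (1.13) were higher, at 0.78 and 0.51 over all their probe sets, where Slc39a14 was not called, and the glutamate carrier gene Slc1a3 (-1.02) and the choline carrier gene Slc44a2 (-0.60) were lower. Of 24 kept solute carriers these make 8.33% in each direction.

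Markers of differentiated lineages were mainly dim. Of 15 chondrocyte markers on the array 2 were kept and none was called, and of 11 osteoblast markers 3 were kept and Tnfrsf11b, the osteoclast inhibitor osteoprotegerin, was higher by 1.13. Another probe set of Tnfrsf11b differed by 0.57 over both media and by -0.04 in control medium. The adipogenic factor Cebpd was lower by -0.86 among 5 kept adipocyte markers, and Tnnt2 was higher by 1.11 among 2 kept muscle markers. Tnnt2 differed by 0.64 in control medium and by 1.59 under PTHrP, and its call was lost in 2 of the 4 fits that leave out 1 array. None of 9 kept imprinted growth genes and none of 7 kept Notch genes was called.

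Many called genes belonged to no list, 204 of those higher and 135 of those lower. The largest among them were Pvr (2.27), a nectin-like adhesion receptor, Phlda1 (2.27) and the nuclear long noncoding RNA Neat1 (2.08) on the high side. Phlda1 read 408.4 and 433.2 in WT cells and 2276.3 and 1980.1 in R150C cells, whereas Pvr stood at 1.36 over all its probe sets. On the low side stood the transcriptional repressor gene Zfp503 (-1.38), the histone gene H2aw (-1.28), the acetyltransferase gene Nat2 (-1.22) and the arginine methyltransferase gene Prmt1 (-1.22). Prmt1 read 624.1 and 605.1 against 237.4 and 284.3.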

How the data were processed

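RNA of 4 cultures was hybridised to 1 array each. The authors deposited 1 intensity per probe set on a linear scale, made with the Affymetrix program Expression Console according to the labels and, per the submitters' processing notes, with no version; its algorithm is stated in none of the sources used here. Detection calls are not among the values. The platform annotation gave 20380 probe sets 1 gene symbol, 691 several and 1555 none, and 20351 matched the mouse gene table (GRCm38.p6, used for names and promoters only). The brightest probe set stood for each gene, and genes at or above the median mean (signal 62.6) were kept. That mean is over all 4 arrays, so some genes passed only through the line where they were brighter. Among others, Lif, Sema7a, Socs3, Atf3, Pdgfb, Lims2 and Tnfrsf1b lay under 62.6 in both WT arrays. Trib3, Txnip, Zfp503, Hoxa5, Osr1, Id2, Fzd8, Rgs2, Dhcr7, Nat2, Ephb3 and Slc1a3 lay under it in both R150C arrays. On log2(signal + 16), centred per array on the kept genes, limma 3.58.1 (R 4.3.3) fitted receptor and medium with Benjamini-Hochberg adjustment at 0.05. Calls had to hold as well when centred on all probe sets, as deposited and after quantile normalization. The standard error, largely pooled over genes, was 0.15 for the median gene. The p-values measure only the departure from additivity in these 4 arrays, which hold no replicate cultures and whose number limits the precision. The fitting code was tested on simulated arrays with known changes, which bears on the code and not on the spread between cultures. The 65 gene lists with 1369 genes, and the comparison itself, were chosen with earlier results of these data known, so they are not independent support. Named are the 20 called genes with the largest difference each way, called list members, the hedgehog genes, Pth1r and Igfbp3. 1 of the gene lists, with 2 called genes, is not reported here. Probe sets with several symbols or none were not named. Alternatives were the scalings, the pseudocount, the filter, the probe set rule, the medium term, an intensity trend and each array left out.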

Additional observations from a re-analysis of the deposited data

Results flagged for a closer look

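Among 800 probe sets above the filter that had several gene symbols or none, and so entered no gene result, 8 were higher in R150C cells by 2-fold or more in both media and 2 were lower. They drew attention as a signal outside the main measurement.

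The medians of 12 of the 65 gene lists had opposite signs in the 2 media, and in 2 of these both were at least 0.1 in size. With 1 array per group the difference between media was not tested. Among the hedgehog genes the sign differed for 1 kept member. Sufu, an inhibitor of Gli factors, differed by 0.27 in control medium and by -0.15 under PTHrP. The median of the 2 kept chondrocyte markers, Sox9 and Col2a1, was 0.27 in control medium (0.275 to 3 digits) and -0.33 under PTHrP. The median of the 3 kept osteoblast markers was 0.71 (0.711 to 3 digits) and -0.34, and it rests on Sp7, which read 45.0 and 117.4 in WT cells and 86.1 and 90.9 in R150C cells.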

How the results depend on the processing

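In 16 alternatives no named gene reversed, and of all called genes 1 changed sign, when probe sets were averaged. The count of genes lower was 319 without centring. Without a filter on dim genes 30 genes were higher and 3 lower, with that filter raised to the 75th percentile 152 and 42 (194 of the 226 called genes still tested there kept their call), and with no filter but an intensity trend, an alternative chosen after the data were seen, 161 and 52. Leaving out 1 array gave 126 to 354 higher and 32 to 181 lower; of the 173 called genes taken by the rule for naming, 135, 149, 94 and 108 kept their call without WT control, WT PTHrP, R150C control and R150C PTHrP. Of 121 named genes called higher 62, and of 52 called lower 22, kept their call in every alternative with a filter. With probe sets averaged 142 of 161 did, and the cause of the losses was not tested. Detection calls were not used, so a dim signal is only a low reading, and with 1 array per group no effect in a single medium has a test. The lines were paired by medium, and without that term 304 genes were higher and 147 lower; replicate numbers give no further pairing, since each group holds 1 array.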

Other observations

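3 genes were too dim on average to be tested yet lay near the floor in both WT arrays and above it in both R150C arrays, by a rule chosen after the data were seen (signal under 25 in both WT arrays and over 100 in both R150C arrays). Plk3, a stress-responsive polo-like kinase, read 11.4 and 2.3 in WT cells and 128.5 and 182.6 in R150C cells. Pkp1, a desmosomal plakophilin, read 12.4 and 24.5 against 123.0 and 119.8. Esm1, a proteoglycan of endothelial cells, read 14.6 and 24.9 against 107.3 and 123.0. Each has 1 probe set, and no gene met the rule in the opposite direction.

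The differences were spread over the genome. The median difference of kept genes over both media ran from -0.107 to 0.00924 over 20 chromosomes, the share of kept genes called higher from 2.16% to 7.35% and the share called lower from 1.08% to 4.71%.

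The difference between the lines was not the same in the 2 media, a gap that the fit takes as its error and that has no test with 1 array per group. Of genes called higher, 164 differed more under PTHrP and 158 more in control medium, and of genes called lower 88 and 94. The difference moved by 1 or more (log2) between media in 61 kept genes, with Abcb8 at the top. Abcb8 read 164.9 and 46.4 in WT cells and 81.9 and 122.1 in R150C cells, and its other probe set differed between the lines by -0.19 over both media.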
